A study of Homo sapiens with 4 samples.

Results

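Chromosomes 16, 17, 20 and 22 are among the gene-rich chromosomes of the human genome, and they were examined here for the RNA contacts of the nuclear protein SAF-A. The members are all CLIP-seq peaks listed on these 4 chromosomes, 31880 of 278959 peaks in the 4 peak lists (11.4%). In RefSeq's GRCh38.p14 gene table the label held: by protein-coding genes per Mb, chromosome 17 ranked 2, chromosome 16 ranked 4, chromosome 22 ranked 5 and chromosome 20 ranked 6 among 24 nuclear chromosomes. The study crosslinked HCT116 cells, an established human colorectal carcinoma line carrying wild-type SAF-A, with ultraviolet light and compared RNA pulled down with a SAF-A antibody (2 samples) with input RNA (2 samples). Both kinds of RNA were cut from the membrane at the size of SAF-A and just above. This makes the input a size-matched background: RNA bound to proteins of that size, which can include SAF-A itself. Which samples share a lysate is not stated in the labels. Nothing in the labels says that replicates came from separate cultures. The p-values of limma and of permutation therefore measure only the spread between these lists, which may be technical.

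SAF-A, also called hnRNP U, is an abundant scaffold protein of the nucleus that binds RNA and DNA and is known for holding chromatin-associated transcripts in place. CLIP-seq marks the stretches of RNA that a protein touches, on the strand of the transcript. Gene-rich chromosomes tend to lie towards the interior of the nucleus and near nuclear speckles, the bodies in which splicing factors gather, and many of their genes are short, with short introns. Neighbouring peaks on 1 strand are often parts of 1 transcript, which is why runs of peaks on 1 strand are described below.

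The lists held 29386 and 42256 peaks in input replicates 1 and 2, and 96061 and 111256 peaks in pull-down replicates 1 and 2. On the 4 chromosomes these lists placed 3864, 5559, 10277 and 12180 peaks. Read depth is unknown, so numbers of peaks were set against the length of their own list. A share can fall because other places gained peaks, and a peak share is not an RNA level. Positions are given as in the files, 1-based. They fit GRCh37, because 44 peaks of chromosome 22 ended past its GRCh38 end and 0 peaks of the 4 chromosomes ended past a GRCh37 end. With no annotation of that build at hand, windows are named by position and not by gene, exon or intron.

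The first question was what part of each list fell on these chromosomes. Each of the 4 took a smaller share of the pull-down lists than of the input lists. Together they held 13.1% and 13.2% of the input lists, and 10.7% and 10.9% of the pull-down lists. Both pull-downs lay below both inputs, by 2.33 percentage points in the mean (13.15% ± 0.005 against 10.82% ± 0.176, SD, n = 2 each). With 2 samples against 2, the exact two-sided permutation test cannot give a p below 0.33, and it gave that value here.

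By chromosome, number 17 held 4.98% and 4.94% of the input peaks against 3.78% and 3.99% of the pull-down peaks, the widest gap of the 4. Its log2 ratio of pull-down over input share was -0.35 (SE 0.03; limma's adjusted p = 9.37e-05). Chromosome 16 held 4.05% and 4.07% of the input peaks against 3.38% and 3.34% of the pull-down peaks, a log2 ratio of -0.27 (SE 0.02; limma's adjusted p = 9.37e-05). For chromosome 22 the input shares were 1.65% and 1.72% and the pull-down shares 1.38% and 1.45%, a log2 ratio of -0.25 (SE 0.03; limma's adjusted p = 0.000579). The smallest gap was that of chromosome 20, with 2.48% and 2.44% in the inputs against 2.16% and 2.17% in the pull-downs, a log2 ratio of -0.18 (SE 0.02; limma's adjusted p = 0.000579). On none of the 4 did the groups overlap, but on how many other chromosomes this also held was not counted. The limma calls stand against a high background: of the 25 chromosomes tested, the mitochondrial one included, 84% were called and 36% were called lower.

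The gap was present in peaks of both widths. Wide peaks, of 50 bases or more, are long stretches of covered RNA, and narrow peaks are shorter than that. Among narrow peaks alone, the log2 ratios were -0.19 for chromosome 16, -0.25 for chromosome 17, -0.10 for chromosome 20 and -0.13 for chromosome 22. Among wide peaks alone they were -0.41, -0.39, -0.45 and -0.34 in the same order. Chromosome 17 stood out among the wide peaks of the inputs, of which it held 7.82% and 7.15%, against 5.58% and 5.82% in the pull-downs.

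**Figure D1:**
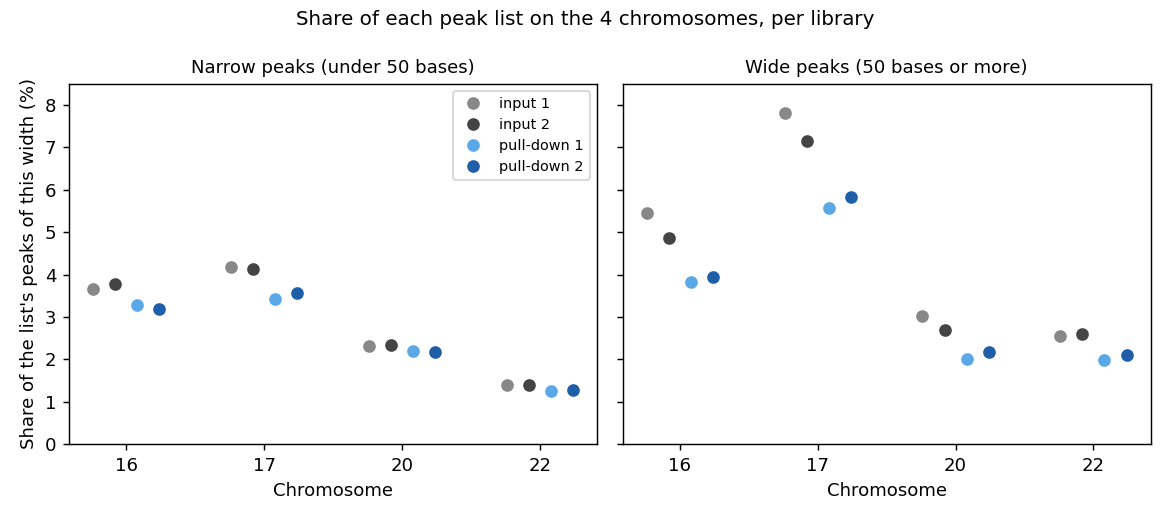
Share of each list's narrow peaks (left) and wide peaks (right) that fell on chromosomes 16, 17, 20 and 22, in percent, with 1 point per library. For every chromosome and both widths the 2 pull-down points sit below the 2 input points, and chromosome 17 has the highest wide shares, 7.82% and 7.15% in the inputs.

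Next, each chromosome was divided into 1 Mb windows, to ask where along it the lower pull-down share arose. Of 289 windows, 31 held no peak in any list (10 on chromosome 16, 2 on 17, 3 on 20 and 16 on 22), and 250 reached the mean of 10 peaks needed for testing. Windows lower in the pull-downs outnumbered higher ones. In limma, fitted over 2776 windows of the genome on log2 of peaks per 10000 listed peaks, 58 windows of the 4 chromosomes were lower in the pull-downs and 27 were higher, at an adjusted p of 0.05. Over all windows tested, 11.1% were lower, 15.9% were higher and 27% were called either way, so lower windows made up 23.2% of the members' tested windows against 11.1% of all, and higher windows 10.8% against 15.9%. The median log2 ratio was -0.06 over the 250 windows and 0.11 over all windows. Without pull-down replicate 1 the calls were 40 lower and 5 higher, and without pull-down replicate 2 they were 42 lower and 2 higher.

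Replicate lists differed by less than counting error: the mean squared difference between replicates over the 250 windows was 0.357 of the counting error in the inputs and 0.495 in the pull-downs. Replicates shared many of their peaks, so limma's spread leaves out part of the uncertainty. Fisher's exact test on the mean peak numbers, which takes peaks as independent although neighbours can come from 1 transcript, was therefore added after the data had been seen. It called 18 windows lower and 1 higher, against 2.7% lower, 0.576% higher and 3.28% called over all windows. All 18 lower windows were also among limma's 58, and all 18 were called in limma without each library in turn. Both tests use the same 4 lists and are not independent. By chromosome the 18 comprised 6 windows of 16, 7 of 17, 3 of 20 and 2 of 22.

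The 18 windows are small in number but hold many input peaks. They took 19.7% and 18.4% of the members' peaks in the inputs against 7.47% and 8.21% in the pull-downs. With these windows set aside, the log2 ratio of the remaining share was -0.08 on chromosome 16, -0.12 on 17, -0.05 on 20 and -0.15 on 22. As the windows were chosen by their ratio, this is a description and not a test.

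The lowest window of all lay near the end of the long arm of chromosome 20, at chr20:60000001-61000000. It held 43 and 54 peaks in the inputs against 24 and 33 in the pull-downs, fewer in number even though the pull-down lists were longer. Per 10000 listed peaks this was 13.7 ± 1.31 against 2.73 ± 0.331 (SD, n = 2 each), a log2 ratio of -2.32 (SE 0.17; limma's adjusted p = 3.88e-12). Much of it was 1 short stretch of the minus strand, chr20:60884442-60913493, in which the inputs listed 21 and 20 peaks and the pull-downs 1 and 0.

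On chromosome 17 the lowest window was chr17:79000001-80000000, with 95 and 110 input peaks against 55 and 75 pull-down peaks. Its log2 ratio was -2.22 (SE 0.18; limma's adjusted p = 1.48e-11). The next window, chr17:80000001-81000000, held 73 and 85 input peaks against 54 and 68 pull-down peaks, a log2 ratio of -1.93 (SE 0.17; limma's adjusted p = 2.00e-10). These 2 windows had the largest input shares of the chromosome. Towards the other end, chr17:7000001-8000000 held 55 and 82 input peaks against 47 and 57 pull-down peaks, with the same log2 ratio of -1.93 (SE 0.17; limma's adjusted p = 1.03e-10).

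The lowest window of chromosome 16 was chr16:2000001-3000000, with 50 and 83 peaks in the inputs against 38 and 49 in the pull-downs. Its log2 ratio was -2.13 (SE 0.17; limma's adjusted p = 1.48e-11). It was also the window with the largest input share of that chromosome. At the far end, chr16:88000001-89000000 held 37 and 48 input peaks against 29 and 44 pull-down peaks, a log2 ratio of -1.79 (SE 0.18; limma's adjusted p = 1.38e-09).

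Of the 2 windows of chromosome 22, the lower was chr22:50000001-51000000, close to the end of the chromosome, with 35 and 45 input peaks against 41 and 46 pull-down peaks. Its log2 ratio was -1.42 (SE 0.17; limma's adjusted p = 6.81e-08). The other, chr22:36000001-37000000, held 36 and 42 input peaks against 50 and 63 pull-down peaks, a log2 ratio of -1.03 (SE 0.17; limma's adjusted p = 2.53e-05). Here the margin in Fisher's exact test was thin, at an adjusted p of 0.0417. Chromosome 22 had no window as low as the lowest of the other 3.

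A pair of the 18 windows differed from the rest in the width and strand of their peaks. In chr16:33000001-34000000 the lists held 32, 35, 28 and 29 peaks (input replicates 1 and 2, then pull-down replicates 1 and 2), of which 90.6%, 94.3%, 89.3% and 86.2% were on the plus strand. In chr20:26000001-27000000 they held 21, 24, 14 and 18 peaks, of which 0%, 4.17%, 7.14% and 5.56% were on the plus strand. Wide peaks made up 21.9% and 11.4% of the input peaks of the first window and 9.52% and 8.33% of the second. On the 4 chromosomes together they made up 31.7% and 34.9%. In 14 of the 18 windows, by contrast, wide peaks made up more than 45% in both inputs, as they did in 35 of all 250 tested windows.

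Only 6 of the 250 windows, all among the 18, held fewer peaks in both pull-downs than in either input despite the longer pull-down lists. They were chr16:2000001-3000000, chr16:33000001-34000000, chr17:79000001-80000000, chr17:80000001-81000000, chr20:26000001-27000000 and chr20:60000001-61000000. There the pull-down lists held less in absolute number and not only in share. In some of these windows, short stretches of 1 strand held many of the input peaks. On the minus strand, chr17:80015797-80059487 held 44 and 57 input peaks against 12 and 13 pull-down peaks. On the plus strand, chr16:33961269-33997671 held 25 and 29 against 18 and 19. The stretch in chr20:60000001-61000000 was described above. These windows were not compared without such stretches.

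**Figure D2:**
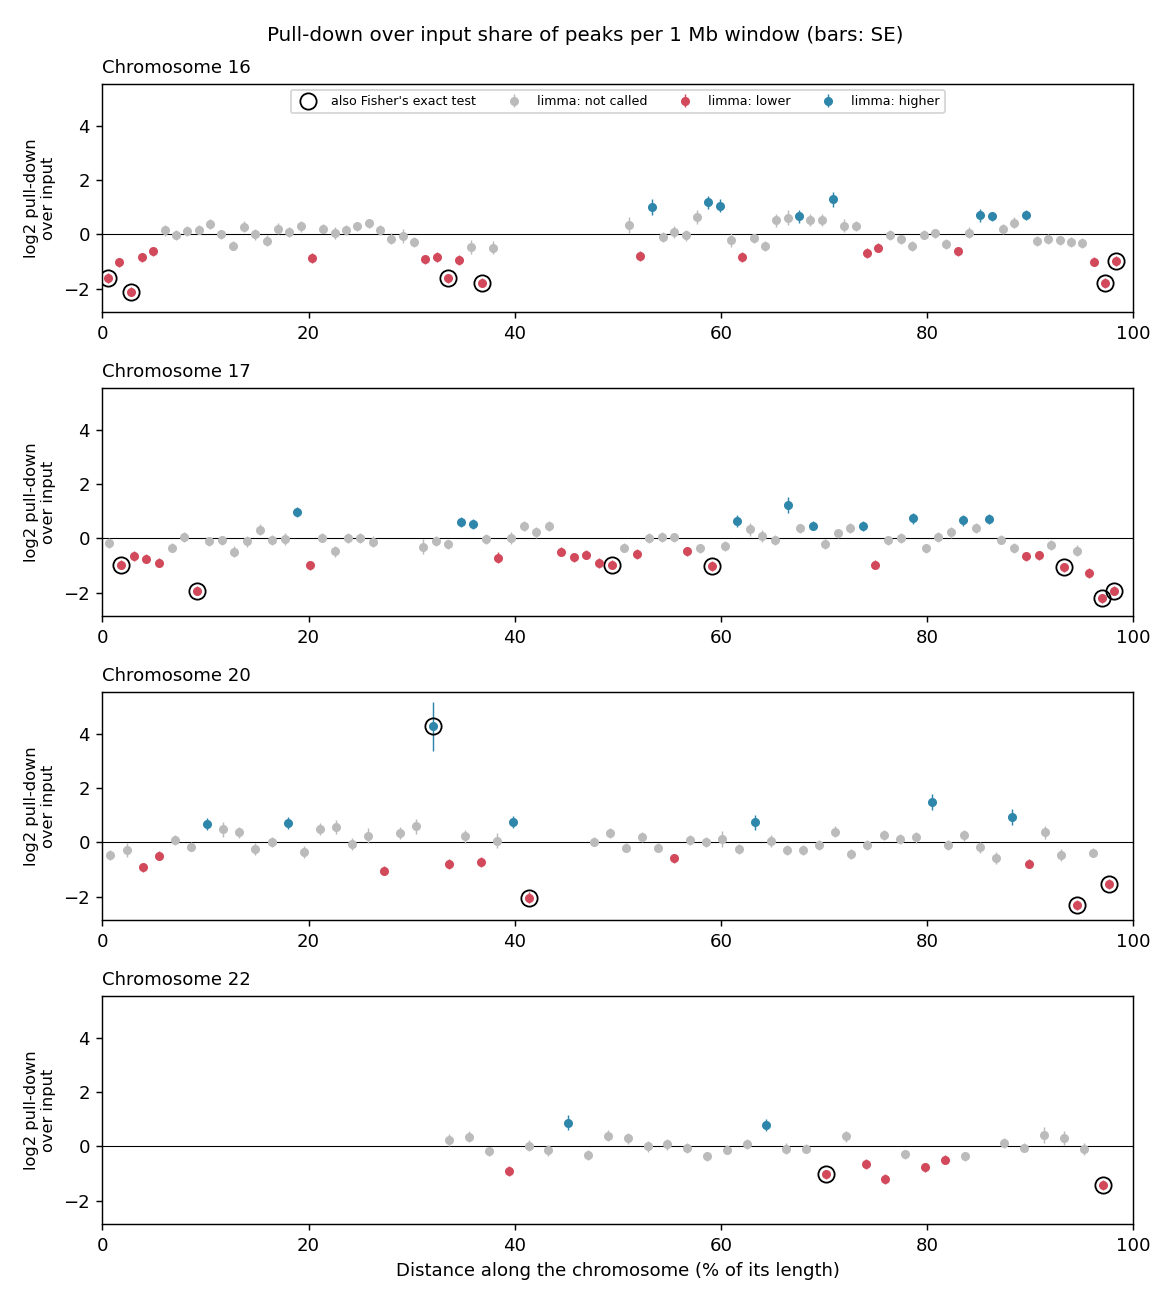
Log2 ratio of pull-down over input share (peaks per 10000 listed, 0.5 added to each peak number) for the 250 tested 1 Mb windows, against distance along the chromosome in percent of its length. Bars are standard errors, colours give the limma call, and open circles mark the 19 windows also called by Fisher's exact test; 18 of them lie below 0, and the 1 far above 0 on chromosome 20 had no input peak, so its height depends on the added 0.5.

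Of the 58 lower windows, 24 lay in blocks of neighbours and 34 did not. Stretches of 3 or more neighbouring lower windows spanned chr16:1-5000000 (5 windows), chr16:28000001-32000000 (4 windows), chr16:87000001-90000000 (3 windows), chr17:1000001-5000000 (4 windows), chr17:36000001-41000000 (5 windows) and chr17:78000001-81000000 (3 windows). The last of these held 12.5% and 10.3% of the chromosome's input peaks against 3.55% and 3.71% of its pull-down peaks. The block at the start of chromosome 16 held 12.5% and 13.7% of the chromosome's input peaks against 6.22% and 6.80% of its pull-down peaks. Chromosomes 20 and 22 had no such block. Ratios of neighbouring windows resembled each other on chromosome 16 (Pearson's r = 0.56 over 77 neighbouring pairs) and on 17 (0.42 over 76), but little on 22 (0.13 over 31) and not on 20 (-0.04 over 58). These correlations describe neighbours of the same libraries.

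The outermost windows were lower more often than the interior ones on 16, 17 and 20. Of the first and last 3 tested windows, all 6 were called lower on chromosome 16, 5 of 6 on chromosome 17, 3 of 6 on chromosome 20 and 1 of 6 on chromosome 22. The first windows of chromosome 22 begin at 17000001, since its short arm held no tested window, and they are not a chromosome end. Their median log2 ratio was 0.23, with 0 of 3 called lower. Between the ends, of 226 tested windows, 43 were called lower and 27 higher. End windows of other chromosomes were not counted, so whether lower ends are particular to these chromosomes was not tested.

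Windows can also be set against their own chromosome, which removes the lower share of the chromosome as a whole. The chromosome's own log2 ratio (-0.27 on 16, -0.35 on 17, -0.18 on 20 and -0.25 on 22) is taken off each of its windows alike. Every window's ratio thus rises by a fixed amount, which favours higher calls. With the 18 windows set aside, as given above, the chromosomes' ratios were only -0.08, -0.12, -0.05 and -0.15. With each chromosome's own peaks as the denominator, limma called 64 windows higher and 41 lower, against 13.1% higher and 10.5% lower over all windows of the genome. Fisher's exact test called 2 higher and 12 lower, against 0.612% and 2.05% over all windows, where 2.67% were called. All 12 lower windows were called in limma without each library in turn, and so were both higher ones. The number of limma calls was not stable: it was 41 windows in all without pull-down replicate 1 and 50 without pull-down replicate 2, against 105 with all 4 lists.

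The 2 windows that were higher than their chromosome in both tests were on chromosomes 17 and 20. In chr17:70000001-71000000 the lists held 22, 34, 113 and 159 peaks in the order given above, the largest pull-down share of chromosome 17. Per 10000 listed peaks this was 7.77 ± 0.396 in the inputs and 13.0 ± 1.79 in the pull-downs (SD, n = 2 each). Against its own chromosome the log2 ratio was 1.07 (SE 0.15; limma's adjusted p = 0.000172; Fisher's exact test, adjusted p = 0.00584). Against the whole list it was 0.72 (SE 0.17; limma's adjusted p = 0.00189), a call that was lost in Fisher's exact test (adjusted p = 0.223) and in 1 of 4 fits without a library. The window held 41 input-free sites, that is, merged sites found in both pull-downs that overlapped no input peak on their strand. Merged sites found in both pull-downs numbered 65 there.

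The other was chr20:20000001-21000000, a window chosen after its values were seen. Both inputs listed 0 peaks there and the pull-downs 24 and 33. With a floor of 3 peaks over both inputs, the pull-down share was at least 6.57-fold higher. Fisher's exact test gave an adjusted p of 0.0135 against the whole list and of 0.00904 against the chromosome. Against the whole list the limma call (adjusted p = 0.000524) was lost in 2 of 4 fits without a library. In lists cut to equal length by score, the window kept 0, 0, 1 and 8 peaks, and among the better-scoring 50% of each list 0, 0, 10 and 14.

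Of the 27 windows called higher by limma, 18 had at most 10 peaks in each input. The highest ratios against the whole list, beside that window, were among these. In chr20:51000001-52000000 the lists held 2, 5, 29 and 31 peaks, a log2 ratio of 1.49 (SE 0.30; limma's adjusted p = 0.000269). In chr16:64000001-65000000 they held 3, 4, 27 and 29 peaks, a log2 ratio of 1.29 (SE 0.29; limma's adjusted p = 0.000938). In chr17:54000001-55000000 they held 3, 4, 24 and 30 peaks, a log2 ratio of 1.23 (SE 0.29; limma's adjusted p = 0.0018). None of these 3 was called by Fisher's exact test, where the adjusted p values were 0.743, 0.842 and 0.934. Leaving out a library ended the limma call of the first in 1 of 4 fits and of the other 2 in 2 of 4 fits each. The 1 higher window called without each library in turn was chr16:81000001-82000000, with 19 and 19 input peaks against 87 and 102 in the pull-downs (log2 ratio 0.73, SE 0.18; limma's adjusted p = 0.00255), which Fisher's exact test did not call (adjusted p = 0.452).

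Against the own chromosome, where all ratios are raised by the fixed amount given above, these 3 windows were called in limma without each library in turn. Fisher's exact test did not call them against the own chromosome either (adjusted p = 0.537, 0.526 and 0.522 in the order given above). The windows of chromosomes 16 and 17 lay in blocks of windows called alike by limma. Fisher's exact test called 0 windows of either block. On chromosome 16, limma called all 8 windows of chr16:59000001-67000000 higher against the chromosome's own peaks. They held 3.95% and 3.49% of its input peaks against 7.09% and 6.83% of its pull-down peaks. Against the whole list, limma called only chr16:61000001-62000000 and chr16:64000001-65000000 of this block higher. Other windows of this block lost the limma call in some fits without a library. On chromosome 17, the 3 windows of chr17:54000001-57000000 held 2.80% and 3.02% of the input peaks against 5.45% and 5.25% of the pull-down peaks. Further blocks lay at chr16:52000001-55000000, chr17:58000001-61000000, chr17:67000001-71000000, chr20:6000001-9000000 and chr20:18000001-21000000. Chromosome 22 had none, and its highest window by rule, chr22:23000001-24000000, held 3, 7, 23 and 32 peaks.

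The windows richest in pull-down peaks were mostly rich in input peaks too. On chromosome 16 the largest pull-down share was in chr16:69000001-70000000, with 41 and 73 input peaks against 139 and 182 pull-down peaks. Its shares did not differ detectably, at 15.6 ± 2.35 and 15.4 ± 1.34 per 10000 listed peaks (SD, n = 2 each; log2 ratio -0.02, SE 0.18; limma's adjusted p = 0.945). Its 52 input-free sites were the most of the 250 windows. They came from 92 sites found in both pull-downs, a share near the 55.3% of the 4 chromosomes together. On chromosome 20, chr20:30000001-31000000 held 21, 35, 72 and 93 peaks, and on chromosome 22, chr22:42000001-43000000 held 33, 42, 69 and 89. The first of these had a log2 ratio of 0.02 (SE 0.17; limma's adjusted p = 0.941) and the second of -0.49 (SE 0.17; limma's adjusted p = 0.0298; Fisher's exact test, adjusted p = 0.852).

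The width of peaks was examined next. On the 4 chromosomes together, a larger part of the peaks was wide than elsewhere in every library; singly, chromosome 20 in pull-down replicate 1 was the exception, at 15.1% (13.7 to 16.7) against 15.7%. Wide peaks made up 31.7% (30.3 to 33.2) and 34.9% (33.7 to 36.2) of the members in the inputs and 20.3% (19.5 to 21.1) and 24.7% (23.9 to 25.5) in the pull-downs. In the rest of the genome they made up 20.7% and 25.3% in the inputs against 15.7% and 18.6% in the pull-downs. Ranges in brackets are 95% Wilson intervals, which cover counting error only. Chromosomes 17 and 22 had the highest wide shares and chromosome 20 the lowest: in input replicate 2 the values were 38.5% on 17, 40.1% on 22, 31.7% on 16 and 29.3% on 20. On each of the 4, both pull-downs lay below both inputs.

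Within windows the drop in wide peaks was broad but seldom large enough to be called. The ratio of wide to narrow peaks could be tested in 142 windows, and it was below that of the inputs in 109 of them, with a median log2 difference of -0.74 (-0.54 over all windows tested). Limma called 15 windows lower and 2 higher, where 10.3% of all windows were lower, 2.43% were higher and 12.7% were called. The members' share of calls thus lay near the background. Fisher's exact test called 0 of the 142 windows, where it called 2.01% of all windows tested, each of them lower, and limma called 0 without either pull-down replicate.

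The largest drops in the wide to narrow ratio were a log2 difference of -2.70 in chr16:58000001-59000000 (SE 0.49; limma's adjusted p = 0.0175), of -2.41 in chr17:39000001-40000000 (SE 0.54; limma's adjusted p = 0.0271) and of -2.38 in chr20:60000001-61000000 (SE 0.53; limma's adjusted p = 0.0265). In the last, which is also the window with the lowest share, wide peaks fell from 65.1% and 51.9% of the input peaks to 16.7% and 24.2% of the pull-down peaks. The 2 rises were in chr22:28000001-29000000 and chr16:78000001-79000000, with log2 differences of 2.45 (SE 0.63; limma's adjusted p = 0.0368) and 1.92 (SE 0.55; limma's adjusted p = 0.0486). None of these 5 held without either pull-down replicate.

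Windows with many wide input peaks tended to have low pull-down shares. Among the 32 windows in which at least 50% of the input peaks were wide, the median log2 ratio of share was -0.87, and limma called 22 lower and 0 higher. Among the 72 windows with fewer than 10% wide input peaks, the median was 0.09, with 2 called lower and 11 higher. Over the 244 tested windows with at least 10 peaks in both inputs together, Spearman's rho was -0.52. It was -0.45 to -0.66 within single chromosomes. Both measures use the input peaks, so the correlation is a description of these libraries. With narrow peaks alone the same windows had medians of -0.34 and -0.12, and rho was -0.13. Counted over narrow peaks alone, limma called 34 windows lower and 9 higher, and 31 of the 34 were among the 58 of all peaks. The share of the genome's windows called with narrow peaks alone is not given here, so these counts have no background beside them.

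**Figure D3:**
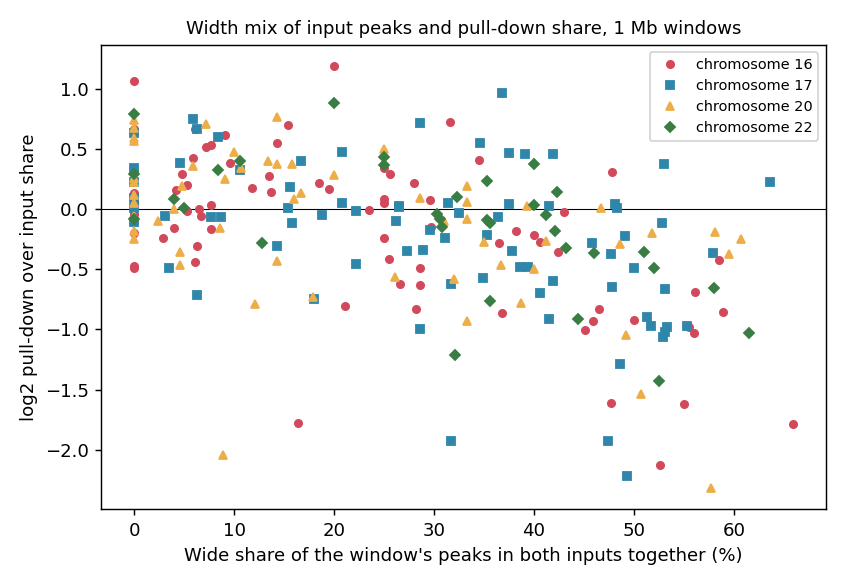
Log2 ratio of pull-down over input share of 1 Mb windows against the wide share of the window's input peaks, in percent, with 1 point per window and a symbol per chromosome. Windows at 50% or more lie mostly below 0 (median -0.87, 22 of 32 called lower by limma), and windows below 10% lie around 0 (median 0.09).

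The strand of peaks was balanced over the chromosomes as a whole, with 48.2%, 50.0%, 50.3% and 49.5% of the members on the plus strand in the order given above. Single windows were less balanced, and more so in the inputs. Of the windows with at least 10 peaks in a library, 30 of 172 and 25 of 206 had at least 75% of their peaks on 1 strand in the inputs, and 15 of 252 and 12 of 252 did in the pull-downs. Windows held fewer peaks in the shorter input lists, whose part in this was not tested. In the rest of the genome such windows made up 17.9% and 15.8% of the windows in the inputs against 5.33% and 5.24% in the pull-downs, against 17.4%, 12.1%, 5.95% and 4.76% on the 4 chromosomes.

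Only 3 of the 172 windows with at least 10 peaks in every list were this one-sided in all 4 lists. Of these, chr16:33000001-34000000 (plus) and chr20:26000001-27000000 (minus) were described above. The other was chr16:87000001-88000000, with 4.35% and 10.7% of its input peaks against 17.6% and 22% of its pull-down peaks on the plus strand. In limma the strand balance differed between pull-down and input in 5 of 250 windows, 3 towards plus and 2 towards minus, where 2.2% of all windows were called, 1.37% towards plus and 0.829% towards minus. Fisher's exact test called 0 of the 250, where it called 0.036% of all windows, and limma called 0 without input replicate 1 or without either pull-down replicate.

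**Figure D4:**
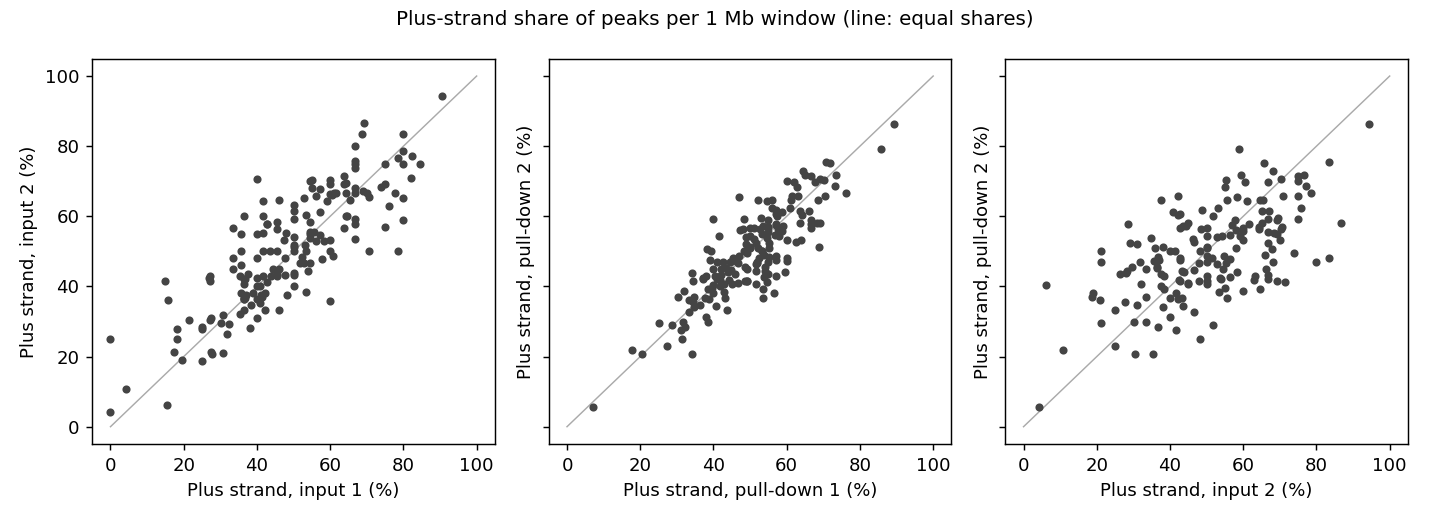
Plus-strand share of peaks, in percent, of the 1 Mb windows with at least 10 peaks in every list, with 1 point per window, for both inputs (left), both pull-downs (middle), and input replicate 2 against pull-down replicate 2 (right). Points near the corners are the windows one-sided in both lists; 3 windows were so in all 4 lists.

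Runs of neighbouring peaks on 1 strand were longer in the inputs when peaks were followed along the whole chromosome. Mean run length was 2.65 and 2.68 peaks in the inputs against 2.34 and 2.41 in the pull-downs, with no overlap (difference -0.29, exact permutation p = 0.33, the smallest that 2 against 2 samples can give). Outside the 4 chromosomes it was 2.33 and 2.42 in the inputs against 2.31 and 2.38 in the pull-downs, which overlap. Whether the members differ from the rest in this was not tested. The direction turned when a run was also ended at a gap of 100 kb: mean run lengths were then 2.05 and 2.26 in the inputs against 2.24 and 2.35 in the pull-downs (difference 0.14). The sign of the difference thus depended on how gaps were treated.

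The longest single runs of the inputs held many peaks of their strand in both inputs. The longest run of input replicate 1 was on the minus strand at chr17:79993789-80059514, with 46 peaks in a row. In that region input replicate 2 had 59 peaks of that strand and the pull-downs 12 and 13. The longest run of input replicate 2, with 57 peaks, lay inside it, at chr17:80015797-80059487. Per 10000 listed peaks the region of the run of input replicate 1 held 14.8 ± 1.20 against 1.21 ± 0.0571 (SD, n = 2 each). On the plus strand, chr16:33961269-33997671 held 25 and 29 peaks in the inputs against 18 and 19 in the pull-downs, or 7.69 ± 1.16 against 1.79 ± 0.117 per 10000 listed peaks (SD, n = 2 each). The longest run of input replicate 1 on chromosome 20, chr20:26188728-29954554 on the minus strand, had 22 peaks. Of these, 21 lay in chr20:26000001-27000000, so most of the span of 3766 kb was nearly empty. That of input replicate 2 had 24 peaks at nearly the same place. On the minus strand of chromosome 22, chr22:36678072-36920730 held 23 and 29 in the inputs against 12 and 16 in the pull-downs, and 87.0% of the peaks of the run were wide. The input runs were named after their values were seen, and the values of the list in which a run was found are a description.

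The longest pull-down run of the 4 chromosomes was on the minus strand at chr17:70522231-70717326, inside the window of chromosome 17 described above. Pull-down replicate 2 listed 67 peaks in a row over 195 kb, pull-down replicate 1 had 44 there, and the inputs had 5 and 9. No list had a peak on the other strand. Per 10000 listed peaks the level was 1.92 ± 0.303 in the inputs and 5.30 ± 1.02 in the pull-downs (SD, n = 2 each). Elsewhere on chromosome 17, and also on the minus strand, chr17:56051131-56087379 held 4 and 9 input peaks against 22 and 28 pull-down peaks, over only 36.2 kb.

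On chromosome 16 the longest pull-down runs were all on the plus strand, among them chr16:69493532-69668169 and chr16:81508247-81593611. The first held 7 and 18 input peaks against 42 and 50 pull-down peaks. The second held 1, 2, 26 and 20 peaks in the usual order, and 61.5% of the peaks of the run were wide. The share of the first in input replicate 2 lay next to those of the pull-downs, while the second was well apart from both inputs (0.407 ± 0.0941 against 2.25 ± 0.643 per 10000 listed peaks, SD, n = 2 each).

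On chromosome 20, a minus-strand run at chr20:30196496-30308221 held 0 and 4 input peaks against 20 and 33 pull-down peaks. A plus-strand run at chr20:61290489-61393000 held 4, 9, 25 and 29 peaks, and lies between chr20:60000001-61000000 and chr20:62000001-63000000, both among the 3 lowest windows of that chromosome. On chromosome 22 the runs were shorter: chr22:38821919-38889344 on the minus strand held 1, 1, 17 and 10 peaks, and chr22:37697763-37823557, also minus, held 0, 3, 12 and 16.

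**Figure D5:**
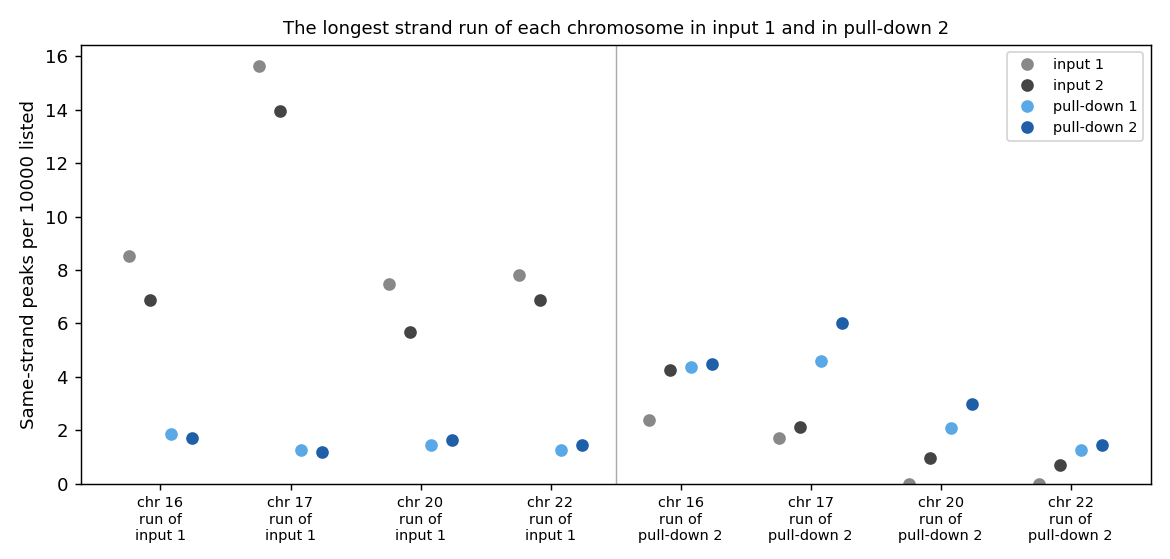
Same-strand peaks per 10000 listed peaks in the region of the longest strand run of each chromosome in input replicate 1 (left of the line) and in pull-down replicate 2 (right), with 1 point per library. In the 4 input runs both inputs lie above both pull-downs, with 14.8 ± 1.20 against 1.21 ± 0.0571 on chromosome 17; in the pull-down run of chromosome 16 input replicate 2 lies close to the pull-downs.

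Peaks of the 4 chromosomes were found again in the other replicate somewhat less often than peaks elsewhere. Counting an overlap of 1 base or more with a peak of the same strand, this held for 73.0% and 50.9% of the input peaks against 61.2% and 51.7% of the pull-down peaks, against 78.4%, 54.6%, 66.1% and 57.3% in the rest of the genome. Wide peaks were found again less often than narrow ones in the inputs: 68.4% (65.7 to 70.9) against 75.2% (73.5 to 76.8) for input replicate 1. In pull-down replicate 1 the values were 51.8% (49.7 to 54.0) and 63.6% (62.5 to 64.6). In lists of equal length this order turned in the pull-downs, with 54.6% of wide against 50.8% of narrow peaks in replicate 1 and 52.7% against 52.0% in replicate 2.

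Of 6281 merged sites found in both pull-downs, 3471 were input-free, 55.3% (95% Wilson interval 54.0 to 56.5), against 57.2% (56.8 to 57.6) in the rest of the genome. The share was 54.3% on chromosome 16, 56.1% on 17, 55.9% on 20 and 54.4% on 22, with intervals that overlap. It depends strongly on list length: with all lists cut to the length of the shortest by score, 337 of 1630 sites were input-free (20.7%). Of the 3471 sites, 25.8% were wide, against 21.2% in the rest of the genome; in lists of equal length this turned to 13.9% against 15.3%. Chromosome 17 had the most such sites, 1228, and the largest wide share, 29.5%.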

How the data were processed

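CLIP-seq peak lists of 2 input and 2 pull-down samples were used, 1 list per sample, so replicates were not pooled. Tools named without versions in the submitters' processing notes are STAR and featureCounts, and the build named is GRCh38. For the peak caller and its threshold, the sources used here say nothing. The authors deposited a score per peak, a whole number from 10 upward of unstated meaning, which here only ranks peaks within a list. The other deposited values are positions, which lie within GRCh37. Lengths of both builds come from general knowledge. Per-library shares carry 95% Wilson intervals.

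Peaks were assigned by midpoint to 1 Mb windows. Shares were log2 of (peaks + 0.5) per 10000 listed peaks, of the list or of the chromosome, for windows with a mean of at least 10 peaks. Width ratios, log2 of (wide + 0.5) over (narrow + 0.5), needed a mean of 5 peaks of each width. Tests were limma 3.58.1 in R 4.3.3 (lmFit, eBayes, with a mean trend for window shares), two-sided, with Benjamini-Hochberg adjustment over all windows of the genome (2776, or 946 for width) or over 25 chromosomes. Replicate differences of the inputs and of the pull-downs were nearly uncorrelated over all tested windows (Pearson's r = 0.05). These differences lay below counting error, so the correlation cannot show whether samples of the same replicate number are paired. No block was used in the main fits. Fisher's exact test (scipy 1.17.1) compared rounded group means of peak numbers, with the same adjustment. It set a window's peaks against the rest of the list or of the chromosome, wide against narrow peaks, or plus against minus strand. The limma script was also run on simulated lists in which sites were listed independently, without runs of neighbouring peaks. No result above rests on that run.

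Windows were named by rule per chromosome: the 3 highest and 3 lowest called, the 2 highest and 2 lowest called against the own chromosome, the 3 largest shares of each kind, the most changed width ratios and strand balances, the 2 longest runs of each pull-down, the 2 windows richest in input-free sites, and blocks of 3 or more windows called alike. Of these, those that bear on the comparisons are printed, together with the windows called by both tests. Members, lists and rules were chosen with earlier results of these data known.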

Additional observations from a re-analysis of the deposited data

How the results depend on the processing

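The chromosome shares kept direction and call in limma under all 10 other settings for each of the 4 chromosomes. The number of windows called for share (85) ranged from 44 to 110 without 1 library. It was 25 in lists of equal length, 52 in the better-scoring 50% of each list, 43 with narrow peaks, 42 with wide peaks and 19 in Fisher's exact test. Against the own chromosome (105) it ranged from 41 to 128 without 1 library, and was 62 in lists of equal length, 49 in the better-scoring 50% of each list, 40 with narrow and 37 with wide peaks and 14 in Fisher's exact test. For the width ratio (17) it ranged from 0 to 28, and was 49 in lists of equal length, 2 with wide from 30 bases, 3 with wide from 100 bases, 0 with a minimum mean of 5 or of 20 peaks of both widths together and 0 in Fisher's exact test. For strand balance (5) it ranged from 0 to 20, and was 0 in lists of equal length, in the better-scoring 50% of each list, with narrow peaks, with wide peaks and in Fisher's exact test. The difference in mean run length, -0.29, turned to 0.14 when gaps of 100 kb ended a run. In the better-scoring 50% of each list the log2 ratio of chr17:15000001-16000000, 0.96 otherwise, was -0.067. The cause was not tested.

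With 50% overlap of both peaks, the peaks found again were 59.4%, 41.3%, 48.4% and 40.8% and the input-free sites 60.2%. In lists of equal length they were 64.2% for each input, 51.2% for pull-down replicate 1 and 20.7% for input-free sites. In the labels, samples of the same replicate number share only that number, and whether they share a lysate is not stated. With the replicate number as a block, limma called 93 windows for share, 115 against the own chromosome, 27 for width ratio and 0 for strand balance; chromosome shares and run length were -0.27, -0.35, -0.18, -0.25 and -0.29 as before. Centring each library on its median window, which removes a shift of 0.11 on the log2 scale, gave 20 higher and 62 lower windows. Depth in reads is unknown; windows with few input peaks limit what can be called higher.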

Other observations

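Input peaks were more concentrated than pull-down peaks. Of the 258 windows with a peak on the 4 chromosomes, 66 and 67 windows were enough to hold 50% of the members' peaks in input replicates 1 and 2, and 89 and 86 windows in pull-down replicates 1 and 2. The fullest window held 2.46% and 1.98% of the members' peaks in the inputs against 1.35% and 1.49% in the pull-downs. On chromosome 22 the fullest window held 7.44% and 7.30% of that chromosome's input peaks and 5.21% and 5.53% of its pull-down peaks. The input lists were shorter, and the part of list length in this was not tested.

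At full list length, chromosome 22 peaks were the least often found again between pull-downs: 56.4% (53.7 to 59.1, 95% Wilson interval) of the peaks of replicate 1 overlapped one of replicate 2, against 63.1% (61.4 to 64.7) on chromosome 16, 60.3% (58.7 to 61.8) on 17 and 62.9% (60.8 to 65.0) on 20. In lists of equal length chromosome 17 was lowest, at 48.5% next to 49.0% on 22, with intervals that overlap.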
